A study of Homo sapiens with 12 samples.

Results

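CXCR4, its ligand CXCL12 and the decoy receptor ACKR3 were followed in a fast population of MDA-MB-231, captured according to the trajectory of its migration, and in the parental cells of the line. The 3 genes were taken by symbol from a deposited table of 60234 genes, and they were chosen by their counts in fast against parental libraries in these same data, so that this difference is described and not tested for them. MDA-MB-231 is an established human breast cancer line of the triple-negative class. Total RNA of cultured cells was sequenced in 12 libraries: 3 of fast cells in batch 2, 3 of fast cells in batch 1, 3 of parental cells in batch 2 and 3 of parental cells in batch 1. The series calls the 3 libraries of a batch technical replicates and speaks of 2 biological replicates, without saying whether these are the batches or the populations. So n counts libraries throughout, p-values are measured against a spread that may be technical, and whether the batches are separate biological samples is not known. The sources used here do not give how many captured cells founded the fast population or whether it is a clone.

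CXCR4 is a seven-pass receptor coupled to inhibitory G proteins, and CXCL12, a chemokine secreted mainly by stromal cells, is its ligand. On binding, G protein subunits activate phosphoinositide 3-kinase and phospholipase C, which steer migration, after which receptor kinases and arrestins silence and internalise the receptor. ACKR3, also known as CXCR7, binds the same ligand, engages arrestins and clears the chemokine from the surroundings without classical G protein signalling. In breast cancer CXCR4 is known for directing tumour cells towards tissues rich in CXCL12, among them lung, liver and bone marrow.

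The promoter stretch before CXCR4 is shown because the results below turn on this gene. RefSeq places it on chromosome 2, and the 250 bases before its outermost start lie at chr2:136118150-136118399 on the minus strand of GRCh38.p14, a later build than the hg19 named for the counts. The capitals mark a match to the binding element of the transcription factor NRF1 (searched on both strands, with the central T of the match left free), 59 bases before the start, and a TATA element (TATAAA, both strands, with overlapping matches), beginning 32 bases before the start.
CXCR4 promoter: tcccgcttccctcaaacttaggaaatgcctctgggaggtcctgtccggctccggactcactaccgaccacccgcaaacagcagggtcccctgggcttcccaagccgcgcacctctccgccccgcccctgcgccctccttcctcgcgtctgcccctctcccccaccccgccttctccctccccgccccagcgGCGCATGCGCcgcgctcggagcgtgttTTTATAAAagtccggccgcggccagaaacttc
An NRF1 element was held by 5.08% and a TATA element by 10.7% of 35116 promoter stretches of the same length. The stretch also had 3 matches to the GC box GGGCGG (both strands), which 42.6% of promoters held, and 0 matches to the hypoxia response core ACGTG (both strands), which 18.5% held. Its GC content was 68.0%, against a median of 58.0% over all promoters, and it contained 24 CpG dinucleotides, more than 76.3% of promoters. RefSeq sequences were matched for CXCR4 and CXCL12 and not for ACKR3, and the CXCL12 stretch is not shown because that gene was at or near 0 throughout.

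Each library held 53267145 to 75944907 counts. Counts came in pairs more often than singly: in each library 1.79 to 2.80 times as many genes stood at 2 counts as at 1 count, so a pair of counts may be a single RNA fragment read from both ends. Of the line's markers, the intermediate filament gene VIM averaged 6912 ± 252 CPM in fast cells, against 5050 ± 83.7 CPM in parental cells (SD, n = 6 each; CPM are counts per 1000000 counts after TMM scaling), and the epithelial cadherin CDH1 had 8 counts over the fast and 3 over the parental libraries. Of the receptors that define the triple-negative class, ESR1 averaged 0.139 and 0.139 CPM, PGR 2.05 and 0.477 CPM and ERBB2 59.0 and 62.4 CPM, in fast and in parental cells.

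CXCR4 messenger RNA was nearly absent from fast cells and plentiful in parental cells. CXCR4 (ENSG00000121966) had 2, 2 and 0 counts in the fast libraries of batch 2 and 4, 0 and 2 in those of batch 1, against 1542, 1970 and 2161 counts in the parental libraries of batch 2 and 1804, 1930 and 2198 in those of batch 1. The highest fast library thus lay far below the lowest parental one, and 2 of the 6 fast libraries held no CXCR4 count at all. Every count above 0 in a fast library was even, so the 10 counts may come from 5 fragments. As a level, CXCR4 stood at 0.0258 ± 0.0235 CPM in fast cells, against 29.9 ± 2.94 CPM in parental cells (SD, n = 6 each).

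Over all libraries the fast level was 0.0846% of the parental one, with an exact 95% interval of 0.0405% to 0.156% on the counts and of 0.0274% to 0.197% on halved counts. It was 0.0675% in batch 2 and 0.102% in batch 1. These intervals, taken on pooled counts, cover counting error only and not the spread between libraries. Counts can also include PCR copies of a molecule, which the intervals do not allow for. Leaving out fast batch 1 replicate 1, the library with the most CXCR4 counts among fast cells, gave 0.0608%. In bulk RNA, fewer cells that express a gene and less RNA in each cell cannot be told apart.

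**Figure D1:**
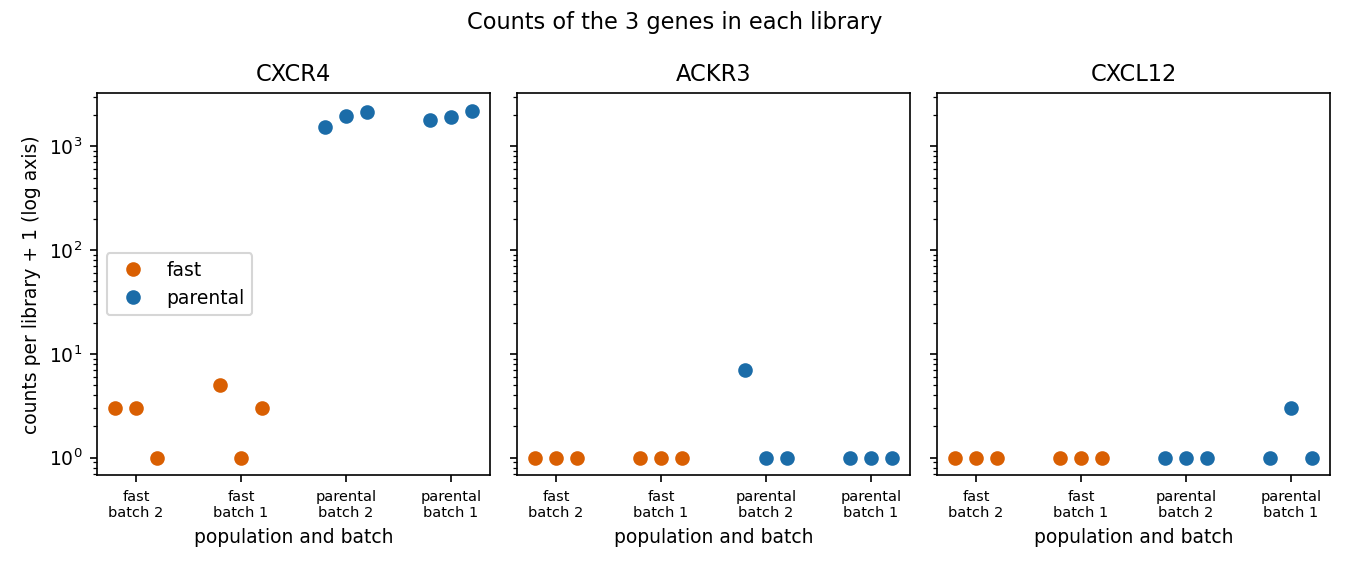
Counts per library plus 1, on a log axis, for CXCR4, ACKR3 and CXCL12; each point is 1 library, with fast libraries in orange and parental libraries in blue. CXCR4 lies at 0 to 4 counts in fast and at 1542 to 2198 counts in parental libraries, while ACKR3 and CXCL12 have counts in 1 parental library each.

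The ligand and the decoy receptor were hardly detected in either population. ACKR3 (ENSG00000144476) had 0 counts in all 6 fast libraries, against 6 counts in parental batch 2 replicate 1 and 0 in the other parental libraries. CXCL12 (ENSG00000107562), on chromosome 10, had 0 counts in all 6 fast libraries, against 2 counts in parental batch 1 replicate 2 and 0 in the other parental libraries. For each gene, 0 counts over the fast libraries allow a level of up to 0.00757 CPM, the value of 3 counts, and of up to 0.0186 CPM by the exact 95% interval on halved counts. On halved counts the parental intervals ran from 0.00318 to 0.0451 CPM for ACKR3 and from 0.00013 to 0.0286 CPM for CXCL12, so both reach below that limit. Of the 3 genes, CXCR4 alone passed the filter on low counts.

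Per kilobase of the longest transcript, the order of the members in parental cells was CXCR4 at 15.8, ACKR3 at 0.00765 and CXCL12 at 0.00146 CPM per kb. In fast cells CXCR4 stood at 0.0136 CPM per kb and the others at 0. The order of ACKR3 and CXCL12 rests on 1 library each and does not go beyond counting error.

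The parental level of CXCR4 was compared between batches, a contrast that the choice of the genes did not use and that may set 1 biological sample against 1. CXCR4 averaged 27.8 ± 2.20 CPM in parental cells of batch 2 and 31.9 ± 2.10 CPM in those of batch 1 (SD, n = 3 each), and the highest library of batch 2, at 30.3 CPM, lay above the lowest of batch 1, at 29.9 CPM. The log2 fold change of batch 2 over batch 1 was -0.20 ± 0.07 SE (edgeR adjusted p = 0.0338 over all 22668 genes tested), where 30.0% of all genes were called. The call was lost without parental batch 2 replicate 1 or 2 or parental batch 1 replicate 1 or 3, with edgeR adjusted p-values of 0.181, 0.112, 0.0643 and 0.201. In fast cells the same contrast rested on 4 against 6 counts and was not called (a log2 fold change of -0.73 ± 0.91 SE, edgeR adjusted p = 0.613), where 27.2% of all genes were.

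The low fast level of CXCR4 was set beside that of all other genes as a description. Of the 22668 tested genes, 6739 had a higher parental level than CXCR4, which placed it at percentile 70.3. Among 12393 tested genes with at least 5 CPM in parental cells, 22 had a fast level of 1% or less of the parental one, 14 of them on the X chromosome and 2 on chromosome 2. CXCR4 was the 13th lowest by this share.

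The profiles most like that of CXCR4 over the 12 libraries were those of LRRN1, TSPYL5, DMD, MAGEA11 and MAGEA6. Likeness was the root mean square difference of centred log2 CPM (prior count 2), which came to 0.36 for LRRN1, 0.43 for TSPYL5, 0.47 for DMD, 0.59 for MAGEA11 and 0.60 for MAGEA6. LRRN1, which encodes a leucine-rich repeat membrane protein, had 4 counts over the fast and 7154 over the parental libraries. DMD, the dystrophin gene, had 0 counts over the fast and 8970 over the parental libraries. TSPYL5 had 0 and 6881 counts and the cancer-testis genes MAGEA11 and MAGEA6 had 0 and 3886 and 0 and 11952 counts, in fast and in parental cells. These genes lie on chromosomes 3 (LRRN1), 8 (TSPYL5) and X (the other 3), whereas CXCR4 lies on 2. At such counts the likeness depends on the prior count, MAGEA6 has near-identical relatives that can share reads, and LRRN1 has an exon that overlaps SUMF1 on the other strand.

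**Figure D2:**
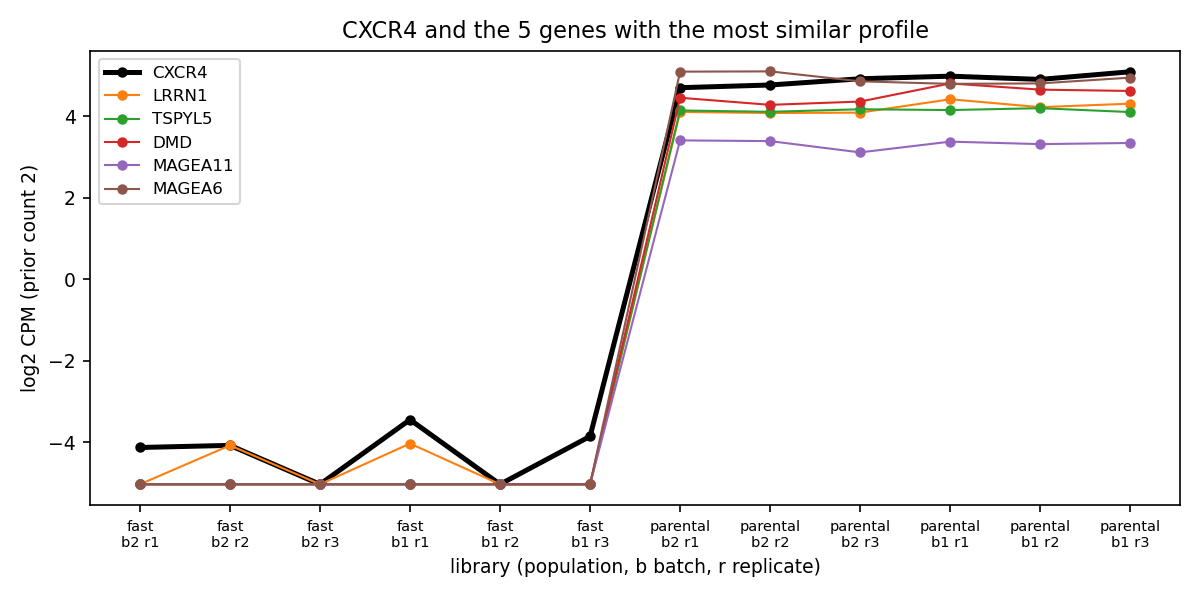
Log2 CPM with a prior count of 2 in each of the 12 libraries for CXCR4 (thick black line) and the 5 genes with the most similar profile. All 6 genes are near the floor in the fast libraries and well above it in the parental ones, and CXCR4 and LRRN1 have a few counts in fast cells.

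The tested genes nearest CXCR4 on chromosome 2 showed no difference near that of CXCR4. The 10 nearest tested genes, 5 on each side, had a median log2 fold change of 0.00 (range -0.30 to 0.75), with 2 higher and 0 lower in edgeR's test. At an unadjusted p under 0.05 and in DESeq2 the counts were the same, and limma-voom called 2 higher and 1 lower. Several of these genes were pseudogenes or antisense transcripts. The 5th gene lay 326509 bases from CXCR4 toward the p arm end and 2173680 bases toward the q arm end, between the lower coordinates of the genes. With 10 tested genes taken on each side, 10 of the 20 were protein-coding, of which 6 were higher and 0 lower in edgeR's test. Their log2 fold changes ran from -0.07 to 0.75. The lowest of them, R3HDM1, at -0.07 ± 0.03 SE, was not called (edgeR adjusted p = 0.0659). It was called in 5 alternatives, DESeq2 among them (edgeR or DESeq2 adjusted p of 0.011 to 0.04997). Over all genes tested, 31.9% were higher and 31.5% lower in fast cells. The aspartyl-tRNA synthetase gene DARS averaged 94.1 ± 2.56 CPM in fast cells, against 92.2 ± 4.97 CPM in parental cells (SD, n = 6 each), a difference that was not called (edgeR adjusted p = 0.325). The replication helicase gene MCM6 was slightly higher, at 104 ± 6.81 CPM in fast cells, against 95.6 ± 2.87 CPM in parental cells (a log2 fold change of 0.12 ± 0.03 SE, edgeR adjusted p = 0.000928), a call that was lost on sums of the libraries (adjusted p = 0.0727). On the other side, the histamine-methylating enzyme HNMT rose to 11.6 ± 1.24 CPM in fast cells, against 6.87 ± 0.715 CPM in parental cells (a log2 fold change of 0.75 ± 0.06 SE). The nearest tested genes on either side, the noncoding AC093391.2 and the pseudogene HNRNPKP2, had log2 fold changes of -0.07 and -0.03 and were not called (edgeR adjusted p = 0.491 and 0.881). AC093391.2 shares exon sequence with DARS on the other strand, so its reads cannot be told apart from those of DARS if counting ignored strand.

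**Figure D3:**
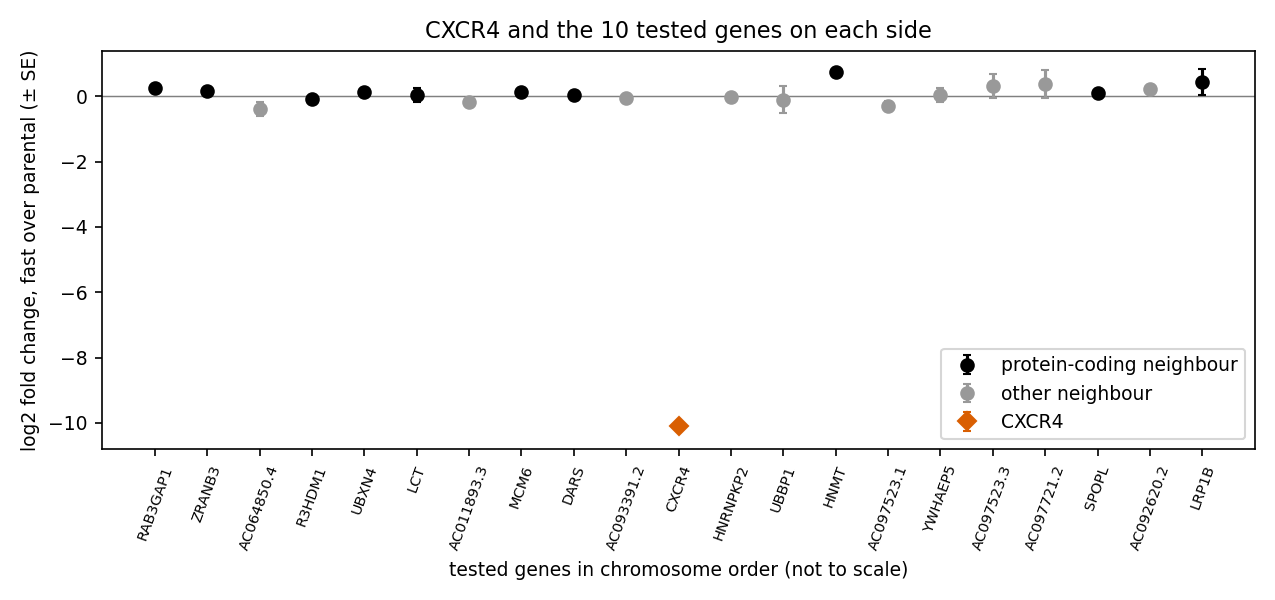
Log2 fold change of fast over parental cells (points, with SE as bars) for CXCR4 and the 10 tested genes on each side of it, in chromosome order and not to scale. The neighbours lie between -0.39 and 0.75, and CXCR4 lies at -10.1.

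The other members' neighbourhoods were mixed. Around ACKR3, also on chromosome 2, 4 of the 10 nearest tested genes were higher and 4 lower (median log2 fold change -0.06). This is near the shares over all genes tested, 31.9% higher and 31.5% lower. The signalosome subunit gene COPS8 rose to 59.3 CPM in fast cells, against 49.1 CPM in parental cells, and the collagen VI chain gene COL6A3 fell to 35.8 CPM, against 97.6 CPM (a log2 fold change of -1.42 ± 0.13 SE, with no call on sums of the libraries, adjusted p = 0.221). The first tested genes on either side of ACKR3 were low: the pseudogene TMSB10P1 had a log2 fold change of -0.04 (edgeR adjusted p = 0.906) and AC105760.2, which overlaps COPS8 on the other strand, one of 0.58 (0.0159, and 0.0502 on sums of the libraries). Around CXCL12, 6 of 10 were higher and 1 lower (median 0.30), beside the same shares over all genes tested. RASSF4, of the Ras association domain family, rose to 10.9 ± 0.876 CPM in fast cells, against 4.53 ± 0.992 CPM in parental cells, and the pseudogene HNRNPA3P1 had 1.74 and 1.65 CPM (edgeR adjusted p = 0.639).

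Other ligands and partners of the receptors changed in both directions. Of 11 genes in this list, 9 had counts and were tested, with 2 higher and 3 lower, and the median log2 fold change was 0.03, against 0.01 over all genes tested. In all, 63.4% of the genes tested were called in 1 direction or the other, so a share of 55.6% in the list is near the background. MIF, a cytokine that also binds CXCR4, averaged 235 ± 12.6 CPM in fast cells, against 212 ± 14.6 CPM in parental cells (a log2 fold change of 0.15 ± 0.03 SE, edgeR adjusted p = 6.26e-05). Its relative DDT, which has a close copy, DDTL, with overlapping exons, stood at 36.6 ± 1.13 and 43.5 ± 2.26 CPM (-0.25 ± 0.04 SE, 4.82e-07). The MIF receptor chain CD74 was not called over both batches, at 300.2 ± 8.85 CPM in fast cells, against 289 ± 105 CPM in parental cells (adjusted p by edgeR = 0.475). Its effect differed between batches, as did that of 5.4% of all genes tested in edgeR.

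Adrenomedullin, ADM, a peptide that ACKR3 can scavenge, fell most in this list. It ranged from 58.5 to 69.0 CPM with a median of 63.8 CPM in fast libraries, and from 152.6 to 269.5 CPM with a median of 208.0 CPM in parental libraries, so that the populations did not overlap. Its log2 fold change was -1.68 ± 0.14 SE (edgeR adjusted p = 1.83e-06), and the call was lost on sums of the libraries (adjusted p = 0.164). CD44, a hyaluronan receptor that can act as a coreceptor with CD74, fell to 705 ± 16.1 CPM in fast cells, against 895 ± 39.0 CPM in parental cells (a log2 fold change of -0.34 ± 0.02 SE). DPP4, the peptidase that inactivates CXCL12 by trimming its end, was higher in fast cells at a low level, 0.408 ± 0.138 against 0.180 ± 0.0865 CPM in parental cells (a log2 fold change of 1.17 ± 0.32 SE, edgeR adjusted p = 0.002). HMGB1, which forms a complex with CXCL12, stood at 466 and 454 CPM, the sialomucin CD164 at 112 and 110 CPM, and the ACKR3 ligand CXCL11 at 0.169 and 0.231 CPM in fast and parental cells, with edgeR adjusted p-values of 0.175, 0.36 and 0.316. The T-cell coreceptor gene CD4 and PENK, source of opioid peptides, had 0 counts in all libraries.

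Per kilobase, CXCR4 stood at 0.0136 CPM in fast cells, against 15.8 CPM in parental cells, where none of the 21 other chemokine receptors listed was above it; both values belong to the contrast that chose the gene. Of these 21, 4 had no count in any library and 7 could be tested, with 3 higher and 2 lower (71.4% called). CXCR5, a B-cell homing receptor, stood at 12.5 CPM per kb in fast and 11.4 CPM per kb in parental cells, but its gene overlaps an exon of BCL9L on the other strand, so how many reads are its own is uncertain. It was called by a small difference (a log2 fold change of 0.13 ± 0.03 SE, edgeR adjusted p = 0.000519) that was lost without a batch term and on sums of the libraries (adjusted p = 0.0656 and 0.0561). The atypical receptor CCRL2 rose to 7.50 ± 0.606 CPM in fast cells, against 5.42 ± 0.476 CPM in parental cells, and CCR10, a skin homing receptor whose gene overlaps CNTNAP1, to 3.44 ± 0.273 CPM, against 2.10 ± 0.404 CPM.

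CCR1, a receptor for inflammatory CC chemokines, fell, though its parental level was low. It had 34 counts over the fast and 532 over the parental libraries, from 0.0306 to 0.154 CPM with a median of 0.0830 CPM in fast and from 1.01 to 1.79 CPM with a median of 1.37 CPM in parental libraries. The populations did not overlap, and the log2 fold change was -3.97 ± 0.26 SE (edgeR adjusted p = 3.21e-15). CXCR6, the receptor of the membrane-bound chemokine CXCL16, had 0.629 CPM in fast cells, against 0.931 CPM in parental cells (a log2 fold change of -0.55 ± 0.20 SE, edgeR adjusted p = 0.0156, lost on sums of the libraries at 0.0507 and without parental batch 2 replicate 2 at 0.051). CCR7, known beside CXCR4 from breast cancer spread to lymph nodes, had 33 counts over the fast and 59 over the parental libraries and was not called (edgeR adjusted p = 0.098).

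**Figure D4:**
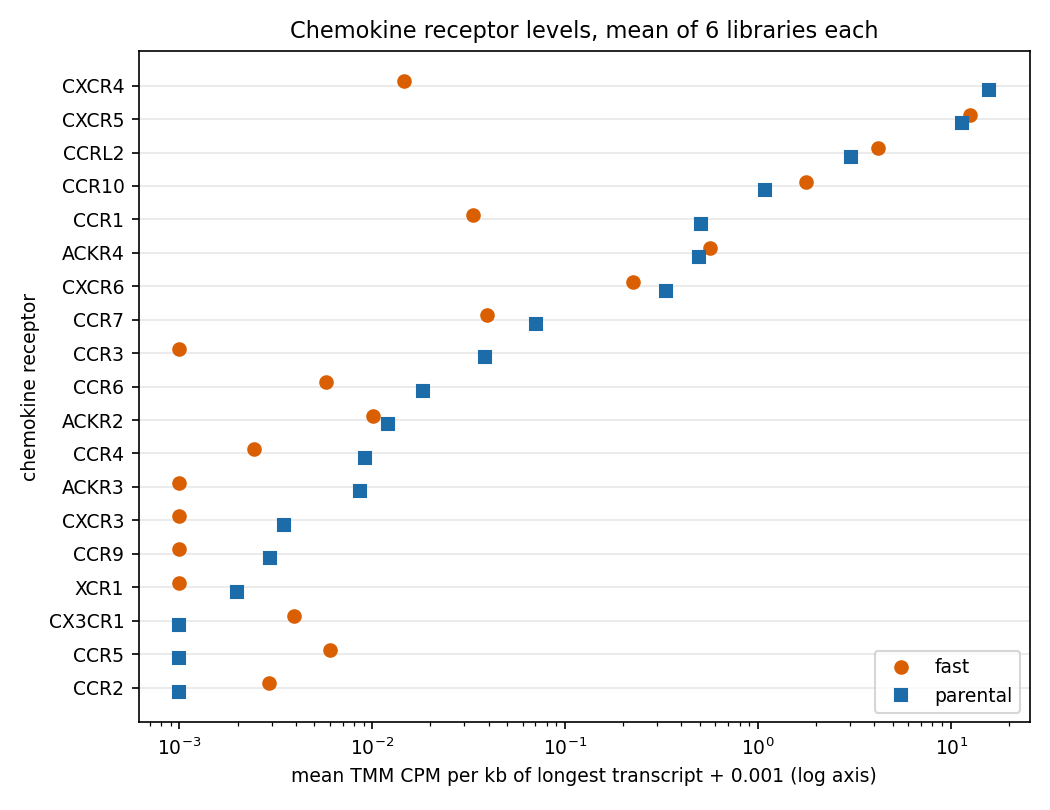
Mean TMM CPM per kb of the longest transcript plus 0.001, on a log axis, for CXCR4, ACKR3 and the other chemokine receptors with any count; orange circles are fast and blue squares parental cells (6 libraries each). CXCR4 is at the top in parental cells with 15.8 CPM per kb and at 0.0136 CPM per kb in fast cells.

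Chemokines other than CXCL12 were mostly low. Of 42, 18 had no count in any library and 10 were tested, of which 0 were higher and 4 lower in edgeR's test (40.0% called, against 31.9% higher and 31.5% lower over all genes tested; the same counts at an unadjusted p under 0.05, in DESeq2 and in limma-voom). CXCL1, a neutrophil attractant, fell to 2.16 ± 0.586 CPM in fast cells, against 7.28 ± 1.70 CPM in parental cells (a log2 fold change of -1.75 ± 0.10 SE). CXCL16 fell to 1.13 ± 0.163 CPM, against 1.70 ± 0.298 CPM, and CCL28, a mucosal chemokine that binds CCR10, to 3.12 ± 0.394 CPM, against 4.42 ± 0.737 CPM. CXCL14 had 4 counts over the fast and 50 over the parental libraries (a log2 fold change of -3.46 ± 0.82 SE, edgeR adjusted p = 0.000382). CXCL16 and CXCL14 overlap genes on the other strand.

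Transcripts of the inhibitory alpha subunits GNAI1, GNAI2 and GNAI3 were present in both populations, as were those of most other subunit genes. A few, such as GNAO1 and GNAZ, were near the floor in 1 or both. Of 21 subunit genes, 19 were tested, with 10 higher and 8 lower and a median log2 fold change of 0.09. The share called was 94.7%, against 63.4% of all genes tested (31.9% higher and 31.5% lower). Of the 19, 17 had a mean of at least 1 CPM, as had 16190 of all 22668 genes tested. Genes of like level were not compared. The inhibitory alpha subunit genes GNAI1, GNAI2 and GNAI3 were higher by small amounts. GNAI1 averaged 23.1 ± 3.10 CPM in fast cells, against 19.7 ± 1.97 CPM in parental cells (a log2 fold change of 0.23 ± 0.05 SE), GNAI2 averaged 267 ± 6.02 CPM in fast cells, against 249.8 ± 10.8 CPM in parental cells, and GNAI3 had medians of 169.3 CPM, against 149.9 CPM (log2 fold changes of 0.09 and 0.18, the first lost on sums of the libraries at an adjusted p of 0.0752). GNAZ, an alpha subunit of the inhibitory class, had 33 counts over the fast and 71 over the parental libraries (a log2 fold change of -1.12 ± 0.46 SE, edgeR adjusted p = 0.0318). This call was lost in 7 alternatives (adjusted p of 0.0537 to 0.0791): without a filter on low counts, on sums of the libraries, and without fast batch 2 replicate 3, fast batch 1 replicate 2, parental batch 2 replicate 2 or parental batch 1 replicate 2 or 3. GNAZ also overlaps RSPH14 on the other strand. GNAO1, an alpha subunit of the same family best known from neurons, had 28 counts over the fast and 2253 over the parental libraries. It ranged from 0.0287 to 0.178 CPM with a median of 0.0459 CPM in fast libraries and from 5.08 to 6.74 CPM with a median of 5.81 CPM in parental libraries, with a log2 fold change of -6.32 ± 0.19 SE (edgeR adjusted p = 2.19e-24). The beta subunit GNB4 fell to 40.4 ± 5.46 CPM in fast cells, against 67.1 ± 9.24 CPM in parental cells, and the gamma subunit GNG12 to 255 ± 7.39 CPM, against 320 ± 13.8 CPM. GNG10 rose to 72.3 ± 3.56 CPM, against 51.2 ± 1.84 CPM, and shares exons with a readthrough gene.

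Genes that silence or sort the receptor changed in both directions. Of 25 kinases, arrestins, sorting factors and RGS proteins, which speed the shut-off of G proteins, 23 were tested, with 14 higher and 8 lower (95.7% called, median log2 fold change 0.21). Among all genes tested 63.4% were called, 31.9% higher and 31.5% lower. Of the 23, 22 had a mean of at least 1 CPM, as had 16190 of all 22668 genes tested, and genes of like level were not compared. GRK3, a receptor kinase listed as ADRBK2 in the table, ranged from 0.357 to 0.746 CPM with a median of 0.538 CPM in fast libraries and from 5.11 to 6.34 CPM with a median of 6.05 CPM in parental libraries. The populations were far apart (a log2 fold change of -3.43 ± 0.13 SE, edgeR adjusted p = 3.36e-22). RGS16 had 56 counts over the fast and 686 over the parental libraries (-3.60 ± 0.25 SE), and RGS4 fell to 12.5 ± 1.09 CPM in fast cells, against 31.5 ± 3.55 CPM in parental cells (-1.32 ± 0.05 SE).

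Other members of this group were higher. RGS10 rose to 264 ± 26.8 CPM in fast cells, against 141 ± 19.2 CPM in parental cells (a log2 fold change of 0.91 ± 0.03 SE), RGS14 to 12.1 ± 0.901 CPM, against 5.26 ± 0.942 CPM, and the kinase GRK5 to 33.7 CPM, against 24.4 CPM. The arrestins moved in opposite directions: ARRB2 fell to 24.3 CPM in fast cells, against 37.3 CPM in parental cells (a log2 fold change of -0.62 ± 0.04 SE), and ARRB1 rose to 14.8 CPM, against 11.7 CPM (0.34 ± 0.05 SE).

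Effectors below the receptor were more often higher than lower. Of 47, 44 were tested, with 26 higher and 12 lower (86.4% called, median log2 fold change 0.21). Over all genes tested, 31.9% were higher and 31.5% lower, 63.4% in all. A mean of at least 1 CPM was reached by 39 of the 44 and by 16190 of all 22668 genes tested, and genes of like level were not compared. Of the 44, 5 were at least 2-fold higher and 1 at least 2-fold lower, where 3.98% and 6.92% of all genes tested were. PIK3CG, the catalytic subunit of the phosphoinositide 3-kinase that G protein beta-gamma subunits activate, rose to 12.8 ± 2.23 CPM in fast cells, against 3.67 ± 0.190 CPM in parental cells (a log2 fold change of 1.78 ± 0.08 SE, edgeR adjusted p = 1.52e-20). The guanine nucleotide exchange factor TIAM1 rose to 41.2 ± 2.06 CPM, against 17.6 ± 0.973 CPM, phospholipase PLCB4 to 31.4 ± 4.37 CPM, against 12.8 ± 1.4 CPM, and LIMK1, the kinase that inactivates cofilin, to 69.3 CPM, against 32.9 CPM. The summed level of 12 leukocyte markers was also higher in fast libraries (21.6 to 26.3 CPM) than in parental ones (16.6 to 19.3 CPM). Most of this sum was the actin-bundling gene LCP1, and the common leukocyte antigen PTPRC was hardly detected in either population. The part of these markers in the values above was not tested. The exchange factor PREX2 had 0 counts over the fast and 120 over the parental libraries.

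Regulators known to act on CXCR4 transcription were mostly lower by small amounts. Of 16, all were tested, with 5 higher and 10 lower (93.8% called, median log2 fold change -0.18). Among all genes tested 63.4% were called, 31.9% higher and 31.5% lower. All 16 had a mean of at least 1 CPM, as had 16190 of all 22668 genes tested, and genes of like level were not compared. HIF1A, the hypoxia-inducible factor subunit that raises CXCR4, averaged 213 CPM in fast cells, against 264 CPM in parental cells (a log2 fold change of -0.32 ± 0.03 SE, edgeR adjusted p = 1.24e-09, and 0.0657 without a batch term), and its partner ARNT 25.4 and 32.2 CPM. EPAS1, the other hypoxia-inducible subunit, rose to 52.9 ± 9.12 CPM in fast cells, against 33.9 ± 7.74 CPM in parental cells (0.65 ± 0.04 SE). Over both batches the populations overlapped for EPAS1, with a fast minimum of 42.6 and a parental maximum of 43.0 CPM. For HIF1A they overlapped too, with a fast maximum of 257.6 and a parental minimum of 224.3 CPM. VHL, which marks these subunits for breakdown, fell to 38.6 ± 4.93 CPM, against 58.9 ± 3.27 CPM, and the oxygen sensor EGLN3, itself induced by hypoxia, to 0.636 ± 0.268 CPM, against 2.06 ± 0.170 CPM.

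Factors with binding elements in the proximal promoter, or that repress the gene, differed by small amounts, KLF2 and NFKB2 apart. NRF1, whose element is capitalised in the sequence above, averaged 20.8 CPM in fast cells, against 23.8 CPM in parental cells (a log2 fold change of -0.20 ± 0.04 SE, edgeR adjusted p = 0.00016). YY1, a repressor of CXCR4, averaged 144 and 174 CPM (-0.27 ± 0.03 SE), and KLF2, which lowers chemokine receptor expression in mouse T cells, 21.7 and 32.9 CPM (-0.60 ± 0.04 SE), in fast and in parental cells. The NF-kB subunit gene NFKB2 rose to 89.8 ± 3.58 CPM in fast cells, against 56.5 ± 3.19 CPM in parental cells (0.67 ± 0.03 SE).

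**Figure D5:**
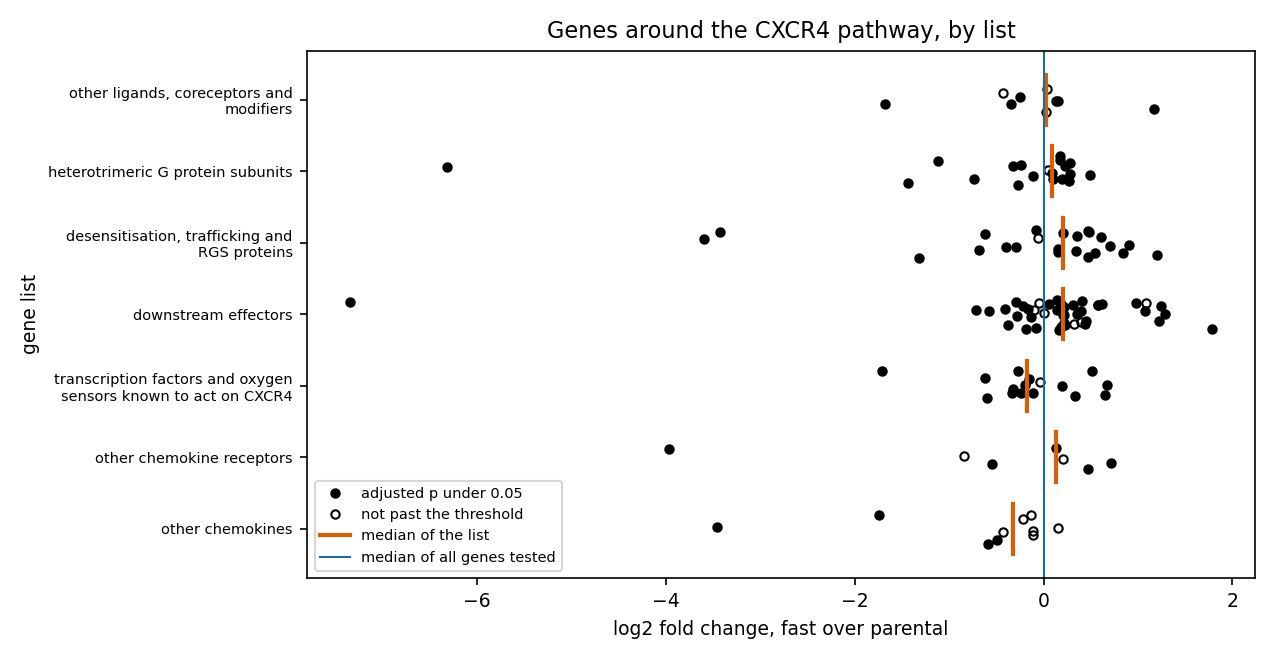
Log2 fold change of fast over parental cells for the tested genes of 7 lists; filled points passed the threshold, orange bars are list medians and the blue line is the median of all genes tested. The medians lie between -0.32 (other chemokines) and 0.21, with single genes such as GNAO1, RGS16 and CCR1 far to the left.

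Markers of cell types that commonly express CXCR4 or CXCL12 were looked at beside these results. Of 12 leukocyte markers, CD3D, CD2 and MS4A1 had 0 counts in all libraries and PTPRC, the common leukocyte antigen, had 7 counts over the fast and 5 over the parental libraries. The summed level of the 12 ran from 21.6 to 26.3 CPM in fast and from 16.6 to 19.3 CPM in parental libraries, most of it the actin-bundling gene LCP1, 2 of 3 tested being higher and 0 lower in edgeR's test, with the same counts at an unadjusted p under 0.05, in DESeq2 and in limma-voom. Of 9 stromal markers, DCN and LUM had 0 counts, and the summed level ran from 9.13 to 11.8 CPM in fast and from 14.3 to 16.6 CPM in parental libraries, most of it COL1A1 (a log2 fold change of -0.61, the 1 call of 2 tested). Of 5 endothelial markers, PECAM1 was not matched and the sum ran from 9.33 to 12.1 CPM in fast and from 8.0 to 10.5 CPM in parental libraries, with KDR higher and VWF lower. Among all genes tested 31.9% were higher and 31.5% lower. The part of these marker genes in the results was not tested.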

How the data were processed

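RNA of 12 libraries was analysed from a table of raw counts per gene that the authors deposited. The submitters' processing notes name Trimmomatic 0.32, STAR 2.3.0e, featureCounts 1.4.4 and the builds hg19 and GRCh37; whether counting used strand, or counted mates of a pair separately, is something the sources used here do not give. All columns were matched to samples by the labels. Counts were scaled by TMM and tested with edgeR 4.0.16 (R 4.3.3) by a robust quasi-likelihood fit after the default filter (minimum count 10, total 15), which left 22668 genes. Batch was an additive term for fast against parental cells, and 1 mean per population and batch gave contrasts between and within batches. P-values were adjusted by Benjamini and Hochberg's method over all genes tested, with a threshold of 0.05; SE was taken from the fold change and its F statistic. The steps were tested on simulated counts.

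The 3 genes, the 7 pathway lists and the marker lists were chosen with earlier results of these data known. The text names the members, all tested genes of the ligand list, up to 4 genes of each other list by size of change among those called in each batch whose mean reached 1 CPM, the nearest tested neighbours and the 5 most similar profiles. The genes CCR1, CCR7, CXCR6, CXCL14, RGS16, GRK5, ARRB1, ARRB2, GNAI1, GNAI2, GNAI3, GNAZ, PREX2, LIMK1, HIF1A, ARNT, NRF1, YY1, KLF2, DARS, MCM6, R3HDM1, HNMT, COPS8, COL6A3 and CXCL8 were added after their values were seen. One effector gene that this rule names is not reported here. Of 216 distinct list genes, 207 had their gene ID in the table, 8 were found by symbol and 1 was not. Gene order, transcript lengths and exon overlaps came from GENCODE 29 on GRCh38, a later build than that of the counts, by gene ID; promoters came from RefSeq GRCh38.p14. Exons of MIF, CD44, CD164, DPP4, GNAO1, GNB4, GNAI3, ARRB1, HIF1A, YY1, NRF1, RASSF4, DARS, COPS8, VIM, CDH1, ESR1, PGR and ERBB2 also overlap other annotated genes, so part of their reads is uncertain. Alternatives were DESeq2 1.42.0, limma-voom (limma 3.58.1), other size factors, other filters, a model without batch, a replicate block, sums of the libraries (1 sum per population in each batch) and leaving out each library. Halving the counts was added after seeing the data.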

Additional observations from a re-analysis of the deposited data

Results flagged for a closer look

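The effect of fast against parental cells was compared between batches by an interaction term in edgeR, in which 5.4% of the 22668 genes were called. The spread in this test is that between libraries, since each batch may be 1 biological sample. For CXCR4, ACKR3 and CXCL12 themselves this was not tested. Among the other named genes 9 were called, and values are log2 fold changes in batch 2 and in batch 1, with their difference and its edgeR adjusted p. CXCL8, the neutrophil attractant listed as IL8 in the table, had -0.95 in batch 2 and 0.42 in batch 1, so that the direction turned (difference -1.38 ± 0.10 SE, edgeR adjusted p = 1.57e-14). CD74, the MIF receptor chain, had 0.60 and -0.32, also in opposite directions (difference 0.92 ± 0.04 SE, edgeR adjusted p = 8.3e-21). ADM had -2.07 and -1.28 (difference -0.79 ± 0.06 SE, edgeR adjusted p = 2.05e-13), and COL6A3 had -1.04 and -1.80 (difference 0.76 ± 0.06 SE, edgeR adjusted p = 2.52e-13). The remaining differences were small: -0.21 for NFKB2, -0.21 for VHL, -0.17 for HIF1A, -0.15 for YY1 and 0.18 for MCM6, with edgeR adjusted p-values of 0.0127, 0.0479, 0.0427, 0.0467 and 0.0301. Groups held 3 libraries each, too few for single libraries to be judged as outlying.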

How the results depend on the processing

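Across 69 named genes and 1434 alternative fits, the direction of fast against parental cells never reversed for a called gene. In these fits 17 calls were lost, 7 of them of GNAZ, and 6 gained, 5 of them of R3HDM1. The threshold was kept on the same side throughout by 58 genes. The counts of called genes were within 1.5 times under all alternatives. The contrast of CXCR4 between parental batches ran from -0.295 to -0.146 on the log2 scale when 1 library was left out, and the calls lost are given in the report. Of the list counts, 3 moved by more than 1.5 times and others by less: at a mean of at least 1 CPM, 1 ligand gene was higher and 0 chemokine receptors lower, since fewer genes were tested, and on sums of the libraries 5 G protein subunits were lower. GNAI2 was also lost on these sums (adjusted p = 0.0752), and HMGB1 was called without fast batch 1 replicate 2 (0.0474). Replicate numbers of the sample titles did not pair the libraries (correlation of deviations from -0.022 to 0.033). In batch 1 the column labels number some of these libraries otherwise, and pairing by those labels was not tried. A replicate block by the title numbers gave 7024 genes higher and 6942 lower, against 7234 and 7140 without it. The 10 nearest genes on each side gave neighbour medians of 0.07, -0.02 and 0.26 for CXCR4, ACKR3 and CXCL12. At the depth of the fast libraries, single CXCR4 counts set its level there.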
